A study of Mus musculus with 6 samples.

Results

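Array-based comparative genomic hybridization (array-CGH) of forestomach tissue was searched for DNA probes whose ratio was shifted to the same side in laser captured epithelia and laser captured stroma. The search covered chromosomes 2, 3, 5, 6, 10, 12, 14, 15, 16, 17 and 19 of the mouse genome (build mm8). A probe was kept when its log2 ratio of test over reference DNA, centered on the median of its array, was above 0.25 on all 6 arrays or below -0.25 on all 6, a shift of at least 1.19-fold. The rule kept 303 of the 21933 probes on these 11 chromosomes, or 1.38%, out of 42404 probes in all. They are called shared probes here, and 157 of them (0.716% of 21933) were higher and 146 (0.666%) lower in the test DNA. Since the ratios of all 6 arrays chose these probes, the ratios are given below as a description, with no test of the shift itself.

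The test DNA came from epithelia and stroma of 3 Tgfbr2fspKO mice with squamous cell carcinoma of the forestomach, 5 weeks of age, of strain C57Bl/6. In these mice FSP1-Cre deletes the floxed gene of the TGF-β receptor 2 in FSP1+ stromal fibroblasts, which are a portion of the cells in captured stroma. The reference DNA on every array was captured from normal forestomach epithelia of Tgfbr2flox/flox mice, which carry the floxed alleles without the deletion. Test DNA was labeled with Cy3 and reference DNA with Cy5 on all arrays, and no dyes were swapped. Epithelia and stroma of a mouse number came from 1 animal. Mice 1 and 2 were hybridized on 1 slide and mouse 3 on a further one, with both tissues on each. Whether 1 pool of reference DNA served all arrays was not given in the sources used here.

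In array-CGH, test and reference DNA in different colors compete for the same spot, and the ratio of the colors follows the ratio of copies of that sequence. A copy number difference that an animal inherited is present in all its cells and gives a like ratio in epithelia and stroma, whereas a change that arose in tumor cells is found only in the tissue that holds them. A difference carried by the reference mice also gives a like ratio in every comparison, as does a probe that takes the dyes unequally. A gained or lost segment usually covers several probes in a row, each shifted the same way. In the design used here, DNA of the Tgfbr2fspKO mice, DNA of the reference mice and the dye cannot be told apart as the source of a shared ratio.

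The search returned scattered single probes. On no chromosome did 3 shared probes of 1 direction follow each other with 2 or fewer other probes between neighbors, so no cluster was found under this definition. With no other probe allowed in between there were 2 runs, both of 2 probes, with 2 allowed there were 10 runs and with 5 allowed 17 runs, and none was longer than 2 probes. Of the 157 higher probes, 1 was followed on the array's map by another higher probe (0.637%), beside 0.716% of all probes that were higher shared probes. Of the 146 lower probes, 1 was followed by another lower probe (0.685%), beside 0.666% of all probes. With 1 such pair in each direction, these shares were close to those of all probes. Neighboring shared probes lay a median of 1922139 bp apart (292 gaps), and of those within 100000 bp of each other 12 pairs had the same direction and 6 the opposite. Within 250000 bp it was 21 and 20 pairs, and within 1000000 bp 60 and 43.

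The absence of clusters depended on which arrays a probe had to pass, and most on a single array. Without the epithelial array of mouse 2, 866 probes were past the threshold on the other 5 arrays (3.95% of 21933) and 73 of them formed 22 clusters, 12 higher and 10 lower. Without any other single array, 383 to 997 probes passed, the most without the epithelia of mouse 1. Of these, 15 were in clusters without the epithelia of mouse 1, 3 without the stroma of mouse 1 and 0 without each of the others. Without both arrays of a mouse, 43, 145 and 6 probes were in clusters for mice 1, 2 and 3. The epithelial array of mouse 2 had the widest spread of log ratio between neighboring probes, 0.835 against 0.395 to 0.488 on the other arrays. Over all 42404 probes its ratios correlated at -0.09 with the epithelia of mouse 1, -0.05 with the stroma of mouse 1 and -0.06 with the stroma of its own mouse, at 0.20 with the epithelia of mouse 3 and at 0.09 with the stroma of mouse 3. The epithelia of mouse 1 were also near 0 with the remaining arrays, at 0.04 with the epithelia of mouse 3 and 0.06, 0.06 and 0.03 with stroma of mice 1 to 3. The epithelia of mouse 3 correlated at 0.24 to 0.59 with the stromal arrays. Among the 3 stromal arrays the same correlation ran from 0.36 to 0.44. The part of the spread of the epithelial array of mouse 2 in the scatter of the shared probes was not tested.

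The 22 clusters seen without that array spanned 4865 to 1251226 bp when higher and 4883 to 193739 bp when lower. Over their probes and the probes between, the epithelial array of mouse 2 had a mean on the opposite side of 0 in 12 of 12 higher clusters (-1.05 to -0.03) and in 8 of 10 lower ones (-0.20 to 1.07). Clusters that the array had shared would have counted among the shared probes, so this order follows in part from the choice. Some lower clusters also averaged slightly above 0 on another array, since the probes between count in the mean. These means were 0.019 at chr5:144614214-144807952 (epithelia of mouse 1), 0.091 at chr2:29908695-29984017 (stroma of mouse 1) and 0.0041 at chr15:79838281-79962608 (stroma of mouse 3). The cluster with the most probes lay at chr2:74455572-74508066 and held 6 probes past the threshold among 10. Over this stretch the log2 ratio averaged -0.84 and -0.64 in epithelia from mice 1 and 3, and -0.61, -0.65 and -0.39 in stroma from mice 1, 2 and 3, but 1.00 in epithelia from mouse 2. A cluster of 4 probes among 5 at chr6:52092090-52136506 had the same form, with -1.22, -0.69, -0.49, -0.70 and -0.45 on the 5 arrays in that order and 1.07 in the epithelia of mouse 2. Both stretches were low in the stroma of mouse 2 and high in the epithelia of the same animal. The 22 clusters held 12 of the 303 shared probes.

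**Figure D1:**
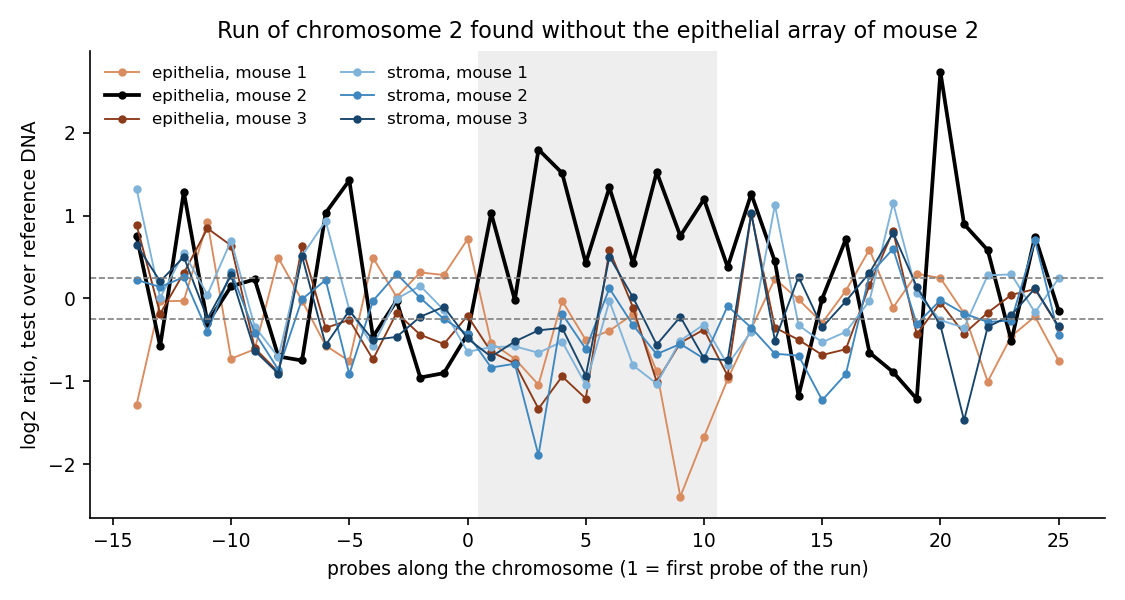
Log2 ratio of test over reference DNA (y axis) on each of the 6 arrays for the probes of the chromosome 2 cluster (gray band, 10 probes) and 15 probes on each side, in map order (x axis), with the thresholds of 0.25 and -0.25 dashed. Within the band the epithelial array of mouse 2 (thick black line) averaged 1.00, and the other 5 arrays averaged between -0.84 and -0.39.

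The probes next to a shared probe showed little of its shift. Around higher probes, the 308 next probes that were not shared themselves had a mean log2 ratio of 0.086 ± 0.052 in epithelia and 0.084 ± 0.044 in stroma (SD, n = 3 mice each), against 0.77 ± 0.18 and 0.75 ± 0.10 for the higher probes. Around lower probes, the 287 next probes averaged -0.0019 ± 0.17 in epithelia and -0.087 ± 0.049 in stroma, against -0.64 ± 0.15 and -0.64 ± 0.048 for the lower probes. The wide epithelial spread came from mouse 2, whose mean beside lower probes was 0.19, while mice 1 and 3 had -0.13 and -0.067. On the other 5 arrays the next probes were shifted to the side of the shared probe, by 0.037 to 0.14. Probes 2 to 10 steps away averaged 0.048 in epithelia and 0.0092 in stroma around higher probes, and -0.020 and -0.048 around lower ones. These values were nearer to 0 than those of the next probes, except in epithelia around lower probes.

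**Figure D2:**
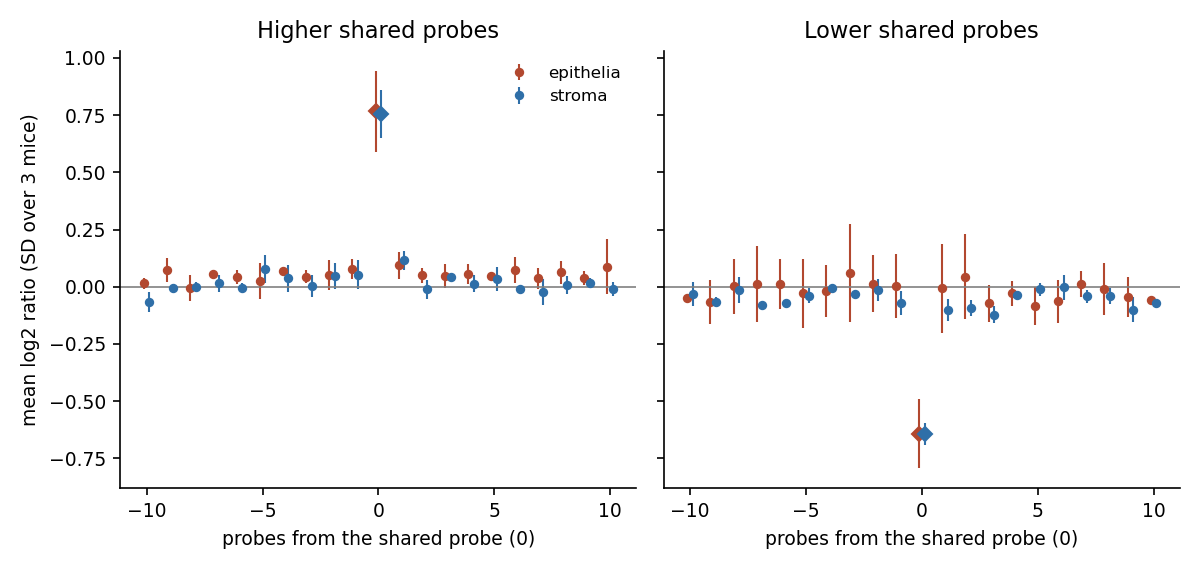
Mean log2 ratio (y axis) at the shared probes (diamonds, 0 on the x axis) and at the non-shared probes up to 10 probes away on each side, for higher (left) and lower (right) shared probes. Bars are the SD over 3 mice, epithelia in red and stroma in blue; the shared probes averaged 0.77 and 0.75 when higher and -0.64 and -0.64 when lower, and the next probes lay near 0.

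The surrounding level of a whole stretch was also set against the shared probes. After the median of 50 probes on each side was subtracted on each array, 116 of the 157 higher probes (73.9%) and 85 of the 146 lower probes (58.2%) were still past the threshold on all 6 arrays. The local median itself had the same sign as the probe on all 6 arrays for 0 higher and 8 lower probes. A single cluster of 3 lower probes appeared with this subtraction, at chr15:54916852-54940582, and none of its probes was among the 303, since the uncorrected ratio of each missed the threshold on some array. The probes of that cluster averaged -0.53, -1.08 and -0.35 in epithelia (mice 1 to 3) and -0.74, -0.65 and -0.58 in stroma before the subtraction.

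Shared probes of 1 direction were direct neighbors at 2 places. At chr5:113531315-113531374 and chr5:113599740-113599797 both probes were higher, with means of 1.03 ± 0.34 and 0.88 ± 0.38 (SD, n = 6 arrays). The first had log2 ratios of 1.24, 1.61 and 0.83 in epithelia of mice 1 to 3 and 0.86, 0.66 and 0.99 in stroma, and both of its channels were well above background on only 1 of 6 arrays, with a dim reference on every stromal array. The flanking probes averaged 0.14 ± 0.39 before the pair and 0.50 ± 0.52 after it. At chr12:56511782-56511841 and chr12:56516389-56516448 both probes were lower, with means of -0.68 ± 0.29 and -0.75 ± 0.21, and here both channels were well above background on all 6 arrays. The first probe of this pair had -0.30, -0.43 and -0.66 in epithelia and -1.12, -0.72 and -0.87 in stroma, with every stromal value below every epithelial one. The second had -1.08, -0.43 and -0.77 in epithelia and -0.66, -0.80 and -0.79 in stroma, so the tissues overlapped. The flanking probes had means of -0.17 ± 0.49 before the pair and -0.076 ± 0.20 after it. The probe before had 0.082, 0.70 and -0.39 in epithelia of mice 1 to 3 and -0.56, -0.26 and -0.61 in stroma. It was thus still low in stroma and in the epithelia of mouse 3. The probe after had 0.28, 0.024 and -0.19 in epithelia and -0.31, -0.15 and -0.11 in stroma.

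All 11 chromosomes held shared probes, between 1.00% of the probes of chromosome 6 and 1.86% of those of chromosome 12, beside 1.38% over all. The direction differed by chromosome. Chromosome 12 had 3 higher and 25 lower probes among 1504, and chromosome 2 had 11 higher and 39 lower among 3524. Chromosome 19 had the opposite split, with 18 higher and 2 lower among 1332, and chromosome 3 had 21 higher and 11 lower among 2171. The median of all probes of these chromosomes moved with the splits in the epithelia of mice 1 and 3, at -0.13 and -0.13 on chromosome 12, -0.11 and -0.11 on chromosome 2, and 0.10 and 0.16 on chromosome 19. In the epithelia of mouse 2 these medians were -0.013, -0.062 and 0.019. In the 3 stromal arrays the medians of these 3 chromosomes lay between -0.036 and 0.031. With the local level subtracted, the rule was applied anew to all probes of these chromosomes. It then kept 10 higher and 13 lower probes on chromosome 12, 32 and 16 on chromosome 2, and 14 and 2 on chromosome 19. These sets include probes that were not shared before. Of the shared probes, 1 higher and 11 lower were kept on chromosome 12. On chromosome 2 it was 11 higher and 13 lower, and on chromosome 19 it was 11 higher and 1 lower. The reversed split on chromosome 2 thus rested on newly passing probes. Of the shared probes there, all 11 higher ones were kept but only 13 of the 39 lower ones, which left the directions nearly even.

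Across arrays, the higher probes had median log2 ratios of 0.62, 0.89 and 0.58 in epithelia (mice 1 to 3) and 0.86, 0.59 and 0.63 in stroma. The lower probes had medians of -0.45, -0.73 and -0.58 in epithelia and -0.64, -0.53 and -0.58 in stroma. The epithelia of mouse 2 held the most distant value for 59 higher and 51 lower probes, more than any other array. That array also placed the most of all probes of the 11 chromosomes past the threshold, 38.8% above and 39.7% below. The count of most distant values was not made over all probes, so it is not read as a trait of the shared probes. Single arrays each placed 27.3% to 38.8% of all probes of the 11 chromosomes above 0.25 and 26.5% to 39.7% below -0.25, so a shift on 1 array alone was common. At 5 of 6 arrays there were 932 higher and 933 lower probes. Raising the threshold to 0.5 left 18 higher and 8 lower probes, at 0.75 there was 1 in each direction, and none was beyond 1 on all arrays.

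**Figure D3:**
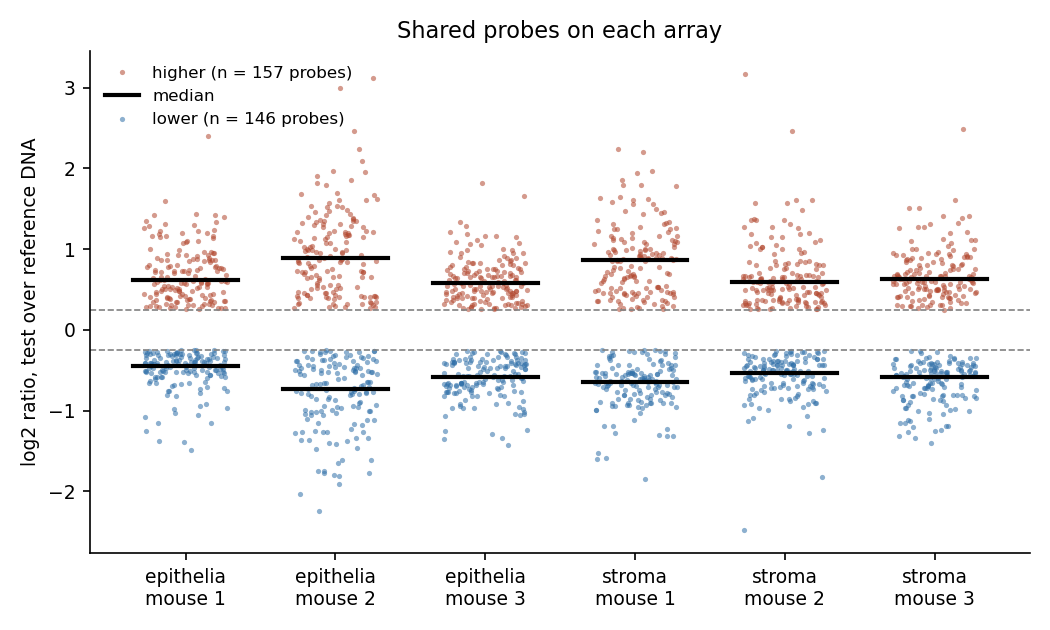
Log2 ratio of test over reference DNA (y axis) of the 157 higher (red) and 146 lower (blue) shared probes on each of the 6 arrays (x axis), with medians as black lines and the thresholds of 0.25 and -0.25 dashed. The medians ran from 0.58 to 0.89 for higher and from -0.73 to -0.45 for lower probes, and the medians farthest from 0 in both directions were those of the epithelia of mouse 2.

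The probe with the highest mean was A_53_P124434 at chr16:6161854-6161913, at 1.99 ± 0.80. It had log2 ratios of 0.44, 2.46 and 1.82 in epithelia from mice 1, 2 and 3 and 2.24, 2.47 and 2.49 in stroma. The epithelia of mouse 1 stood apart from the other 5 arrays. Its reference signal was well above background on only 2 of 6 arrays, and with normexp its mean was 1.23 and it did not meet the rule. The probes on its sides averaged 0.43 and 0.92; they ended at 5800437 and began at 6666468, far from it on both sides.

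A_53_P113761 at chr16:17429527-17429586 was the highest ranked probe with both channels well above background on every array, at 1.19 ± 0.38. It had 1.42, 1.60 and 0.67 in epithelia and 1.50, 0.84 and 1.13 in stroma, and the tissues overlapped. The probe before it averaged 0.70 and the probe after it 0.30. A_53_P128970 at chr6:86404439-86404491 had 1.22, 1.18 and 1.66 in epithelia and 1.34, 0.46 and 1.61 in stroma, with next probes at -0.045 and -0.18. Its reference was well above background on 2 of 6 arrays, and with normexp its mean was 0.74 in place of 1.24. A_53_P163855 at chr6:85889143-85889202 had 1.26, 0.34 and 0.84 in epithelia and 1.78, 1.57 and 1.52 in stroma. Its reference signal was not well above background on any stromal array, and with the reference set at the lowest signal above background the stromal ratio was at least 1.38-fold, so the order of the tissues is not known. With normexp its mean was 0.59, and it no longer met the rule. A_53_P151798 at chr14:30921046-30921105, also among the 5 highest, had 0.74, 3.12 and 0.92 in epithelia and 0.47, 1.36 and 0.85 in stroma. There the epithelia of mouse 2 lay far above the other arrays, and the reference was well above background on 2 of 6 arrays. With normexp its mean was 0.70 in place of 1.24.

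The lowest mean was that of A_53_P176018 at chr12:32038613-32038672, at -1.34 ± 0.58, with -1.25, -2.24 and -1.06 in epithelia and -1.84, -0.69 and -0.97 in stroma. A_53_P122988 at chr2:164478622-164478675, at -1.22 ± 0.33, had -0.75, -1.65 and -1.42 in epithelia and -1.19, -0.95 and -1.34 in stroma. Each of these probes had a test and a reference signal well above background throughout, the tissues overlapped in both, and their neighbors averaged between -0.082 and 0.19. A_53_P147841 at chr3:97496523-97496576 had -0.52, -2.03 and -0.98 in epithelia and -1.30, -1.19 and -1.20 in stroma, and its neighbors were lower as well, at -0.37 and -0.48. A_53_P137290 at chr5:96967903-96967962 had -0.66, -1.90 and -0.29 in epithelia and -1.28, -1.82 and -1.40 in stroma, with mouse 2 lowest in both tissues. Its test signal was well above background on 4 of 6 arrays, its mean was -0.60 with normexp in place of -1.22, and it did not meet the rule with normexp or after subtraction of the local level. A_53_P148603 at chr6:147051533-147051592 had -0.94, -1.26 and -0.51 in epithelia and -0.91, -2.48 and -0.60 in stroma, with the test signal well above background on 3 arrays and the reference on 2. With normexp its mean was -0.41 in place of -1.12, and it did not meet the rule.

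**Figure D4:**
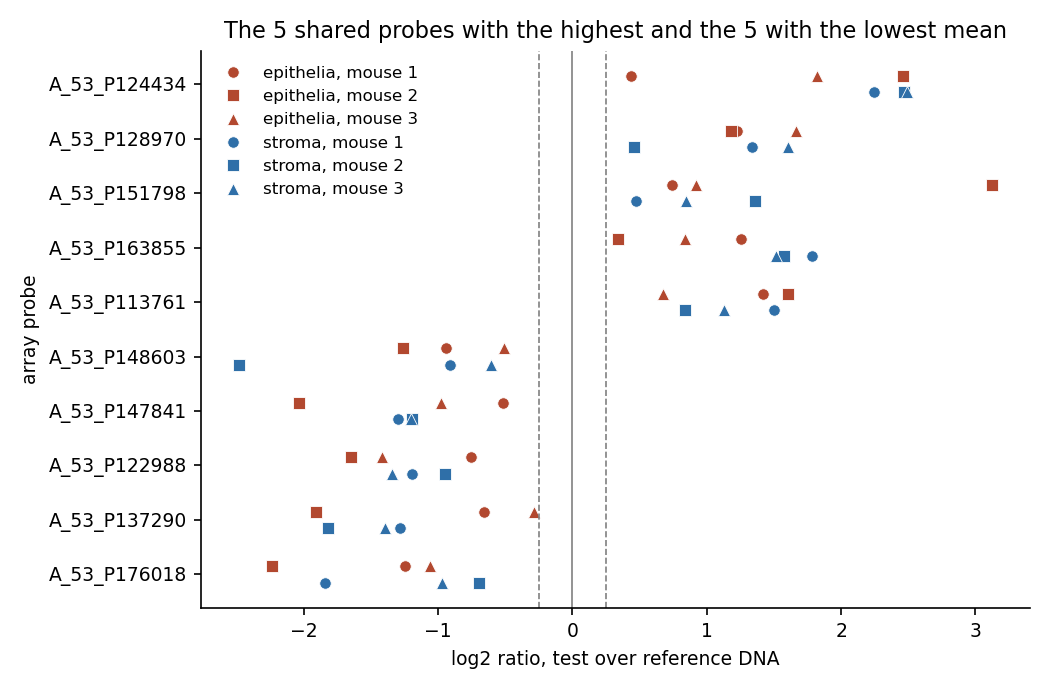
Log2 ratio of test over reference DNA (x axis) on each of the 6 arrays for the 5 shared probes with the highest and the 5 with the lowest mean (y axis), epithelia in red and stroma in blue, with a symbol for each mouse and the thresholds dashed. A_53_P151798 was set apart by the epithelia of mouse 2, at 3.12, and the stromal ratios of A_53_P163855 are only bounds, since its reference was not well above background there.

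Ranges between mice were led by A_53_P131647 at chr5:97697162-97697218, where the mean of both tissues was 0.57, 2.09 and 0.36 in mice 1, 2 and 3. Its values were 0.70, 1.00 and 0.27 in epithelia and 0.45, 3.17 and 0.45 in stroma, so the range of 1.73 came from the stroma of mouse 2. A_53_P165821 at chr17:84337486-84337545 had a range of 1.60 and owed it to the epithelia of mouse 2, at 3.00 against 0.51 to 1.21 elsewhere. A_53_P151798, described above, had a range of 1.63. In all 3 the mouse that stood out was mouse 2, in only 1 of its tissues for the first and mainly in the epithelia for the others, and the reference was well above background on 2 of 6 arrays.

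The limit of the rule cut through a continuous range of values. Just inside, the array nearest to 0 had 0.252, 0.254 and 0.254 for the higher probes A_53_P176631, A_53_P116825 and A_53_P130302. Just outside, it had 0.249, 0.248 and 0.248 for A_53_P163082, A_53_P137553 and A_53_P179237. On the lower side the nearest array had -0.25004, -0.25071 and -0.25080 just inside for A_53_P139914, A_53_P141647 and A_53_P169992, and -0.24995, -0.24992 and -0.24965 just outside for A_53_P156071, A_53_P155202 and A_53_P122091. The probe A_53_P179237 just outside had a mean of 0.99 and so was farther from 0 on average than A_53_P176631 just inside, at 0.33.

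Most shared probes were represented by 1 spot on the array, and 2 by 3 spots. At A_53_P141212, chr15:10166285-10166344, all 3 spots were above 0 on every array, from 0.43 to 1.95. At A_53_P157798, chr17:78655690-78655749, single spots ran from -0.15 to 1.44, and only the mean of the spots was above 0.25 on each array, with a reference not well above background on any stromal array. In this probe the SD between spots exceeded their mean on 3 of 6 arrays.

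The higher probes had dim reference signals. Their median signal was 885.6 in the test and 523.0 in the reference channel, whereas the lower probes had 1339 and 1969, and all probes of the 11 chromosomes had 1030 and 1014. The reference was well above background on all 6 arrays for 77 of 157 higher probes (49.0%) and 132 of 146 lower probes (90.4%), against 74.2% of all probes. The test channel was well above background on all 6 arrays for 83.4% of higher, 87.7% of lower and 82.6% of all probes. Since a ratio above 0 favors a dim reference, part of this order follows from the rule. The gap was on the slide of mice 1 and 2, where 52.2% to 61.1% of the higher probes had a reference well above background, against 78.8% to 83.0% of all probes. On the slide of mouse 3 it was 97.5% of higher probes in epithelia and 93.6% in stroma, against 97.6% and 95.7% of all probes. The reference was thus dimmer for all probes on the slide of mice 1 and 2. For 10 higher probes the reference, and for 3 lower probes the test signal, was not well above background on any of the 3 arrays of a tissue. Where the other channel was not dim in this way, their ratio there is only a bound. Of all 21933 probes, 994 had such a reference and 490 such a test signal. In 2 of these higher and all 3 of these lower probes both channels were dim in a tissue, and the ratio in that tissue gives no bound. Set against the lowest signal above background, 3 of the higher ratios were still above 1-fold, at 1.03 to 1.55-fold at the least. They were those of A_53_P163855 in stroma and of A_53_P162832 in both tissues.

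With normexp background correction, which models the background in each channel, 65 higher and 141 lower probes passed the rule, a share of higher probes of 31.6% against 51.8%, and 146 of the 303 shared probes were among them. When only probes with test and reference signal well above background on each of the 6 arrays were kept, with the centering unchanged, 77 higher and 128 lower ones passed.

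Probe length and spacing differed as well. Of the lower probes, 39 (26.7%) were shorter than 60 bases, against 25 higher probes (15.9%) and 19.8% of all probes. The lower probes lay a median of 7395.5 bp from the nearest probe, against 11462 bp for the higher and 11678 bp for all probes. Lower probes made up 0.930% of the probes with a neighbor within 5 kb, 0.719% at 5 to 20 kb and 0.399% beyond 20 kb, whereas the share of higher probes was 0.732%, 0.679% and 0.756%. Lower probes were thus more frequent where the array was dense, and higher probes showed no such order. Spots marked as outliers by the scanner software were found for 34 higher (21.7%) and 31 lower probes (21.2%), near the 19.8% of all probes.

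Whether the shift was repeated in an animal that had no part in the choice was examined by leaving out each mouse in turn. Probes were chosen on the 4 arrays of the other mice and then read on both arrays of the mouse left out. Of 375 higher probes chosen on mice 1 and 2, 157 (41.9%) were above 0.25 in both tissues of mouse 3, where 17% of all probes were, and 11 were below -0.25 in both. Of 354 lower probes, 146 (41.2%) passed in mouse 3, against 16.1% of all probes, and 13 had the opposite direction. Mouse 1 repeated 20.8% of 753 higher and 19.7% of 742 lower probes, beside 11.4% and 9.99% of all probes. Mouse 2 repeated 21.3% of 738 higher and 23.8% of 614 lower probes, beside 10.4% and 9.26%. In each mouse the chosen probes passed more often than all probes did, and 0.943% to 3.67% of them were past the threshold on the opposite side. The probes that passed were the same 157 higher and 146 lower shared probes for every mouse left out. Only the number chosen differed, so the readings of the mice are not independent of each other and are no test of the shift. The arrays of the mouse left out used reference DNA of the same kind and the same dyes as the others, so the repeat does not separate test from reference.

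**Figure D5:**
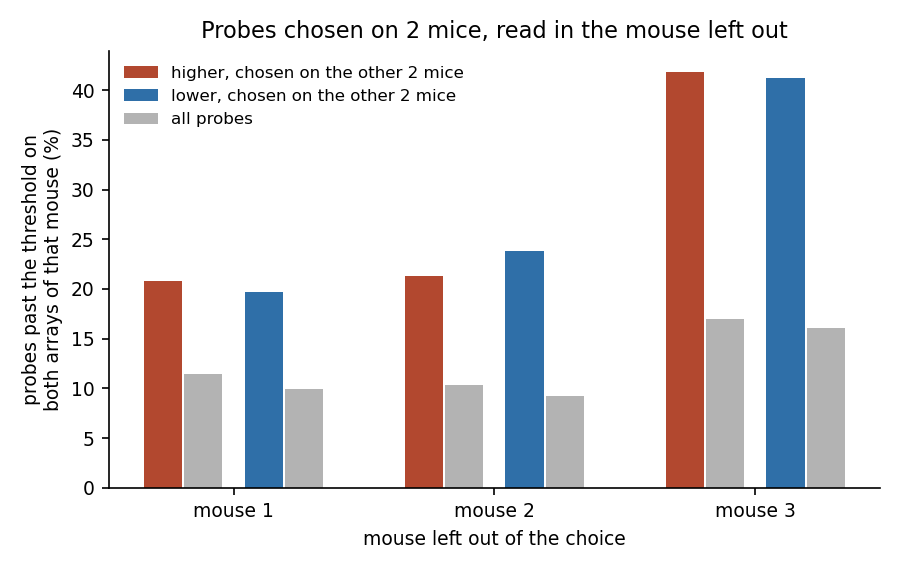
Share of probes past the threshold on both arrays of a mouse (y axis, %), for probes chosen as higher (red) or lower (blue) on the 4 arrays of the other mice, beside all probes of the 11 chromosomes (gray), with the mouse left out on the x axis. The shares were 41.9% and 41.2% in mouse 3, against 17% and 16.1% of all probes, and 19.7% to 23.8% in mice 1 and 2.

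Each tissue alone placed more probes past the threshold. The 3 epithelial arrays gave 938 higher and 593 lower probes, of which 16.7% and 24.6% were shared with stroma. Of all probes of the 11 chromosomes, 8.04% were higher and 10.02% lower on the 3 stromal arrays. The 3 stromal arrays gave 1764 higher and 2198 lower probes, of which 8.90% and 6.64% were shared. Of all probes, 4.28% were higher and 2.70% lower on the 3 epithelial arrays. In both directions the overlap was larger than the share of all probes, a difference that was not tested. In 42 probes the tissues were past the threshold on opposite sides on all arrays, 37 of them higher in epithelia and lower in stroma, and with normexp this number was 16.

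Epithelia and stroma of the same mouse were then compared with limma over all 42404 probes, with the mouse as a block and Benjamini-Hochberg adjustment. Of all probes, 8 passed an adjusted p of 0.05 (0.0189%), and 0 of the 303 shared probes did. At an unadjusted p under 0.05 there were 2 shared probes (0.660%) and 3087 of all probes (7.28%), and the lowest adjusted p of a shared probe was 0.679. The methods' t-test, paired by mouse, called 0 of all probes and so 0 shared probes. By this test 15 of the 303 shared probes had an unadjusted p under 0.05, beside 1821 of all 42404 probes. The rule demanded the same direction in both tissues and so favored small differences, and nothing is read from these counts. Among higher probes, 19 were farther from 0 in epithelia in all 3 mice and 16 in stroma. Among lower probes, 13 were farther in epithelia and 23 in stroma. The same counts were not made over all probes, so nothing is read from them. The median difference of epithelia minus stroma was -0.032 for higher and 0.0057 for lower probes.

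The difference between the 3 mice was tested in the same model. By limma, 0 of 42404 probes and 0 shared probes passed an adjusted p of 0.05 (0% called), and 5 shared probes (1.65%) had an unadjusted p under 0.05, beside 4.22% of all probes. Between mice 1 and 2, which shared a slide, 0 shared probes passed and 6 had an unadjusted p under 0.05, beside 7.3% of all probes. The rule required every mouse to be past the threshold on 1 side and so favored small differences between mice, and nothing is read from these counts either. The mean over both tissues varied between mice by a median of 0.40 for higher and 0.31 for lower probes.

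The remaining chromosomes, 1, 4, 7, 8, 9, 11, 13, 18 and X, held 319 probes that met the same threshold among 20302. Lower probes there were followed by another lower probe in 9 of 165 cases (5.45%), beside 0.813% of all probes, and 16 probes formed 4 clusters, the longest with 7 probes. On the 11 chromosomes described here the same count was 1 of 146 and no cluster. This difference was not tested.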

How the data were processed

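DNA of 3 epithelial and 3 stromal samples was hybridized against reference DNA on 6 arrays of 45220 spots. The deposited intensity values were made by the authors with Agilent Feature Extraction 10.7.1.1, as raw and as processed signals per channel after background subtraction and dye normalization. The deposited log10 values are the authors' log10 ratios of reference over test signal, and the series table held the same values. The array format differed between the sources, and the files fixed the number of spots.

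The log2 ratio of the processed test over the processed reference signal was averaged over the spots of each of 42404 probes and centered on the array median. No loess was applied, and outlier spots were kept. Positions of mm8 were given for 42235 probes. Probes were well above background in 87.9% to 98.3% of test and 77.9% to 97.5% of reference spots per array. Precision is limited by having only 6 arrays.

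The shared probes, the definition of a cluster (at least 3 probes of 1 direction with at most 2 others between neighbors) and the comparisons were chosen with earlier results of these data known. Described by name are the 5 highest and 5 lowest means, the 3 largest ranges between mice and the 3 probes on each side of the threshold in each direction. Probe sequences and an annotation of mm8 were not used here, so genes are not named.

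Differences were fitted with limma 3.58.1 in R 4.3.3 over all probes, with the mouse as a block because the labels assign both tissues to 1 animal. The deviations of the paired arrays correlated at 0.078, -0.023 and 0.10 across probes. The fit and the search for clusters were tested on simulated data. Counts were made in Python 3.11.15 with numpy 2.4.6 and pandas 2.3.3, and plots with matplotlib 3.10.9. The alternatives were normexp with an offset of 50, loess, filters on dim and outlier probes, other centering, other thresholds, subtraction of the local level, and each mouse left out.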

Additional observations from a re-analysis of the deposited data

How the results depend on the processing

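The number of shared probes was 303 and stayed between 205 and 348 with the log ratios of the series table, normexp, loess, filters on dim or outlier probes, centering on the 11 chromosomes and subtraction of the local level. It was 26 at a threshold of 0.5, 729 to 1495 without 1 mouse, 1531 on the 3 epithelial and 3962 on the 3 stromal arrays alone, and 866 without the epithelial array of mouse 2, an alternative added after seeing the data. Probes in clusters numbered 0 with 0 or 5 other probes allowed, normexp, dim probes removed or feature outliers removed, 3 after subtraction of the local level, 6 to 145 without 1 mouse (145 without mouse 2), and 73 without the epithelial array of mouse 2. The fewer arrays a probe had to pass on, the more probes passed by construction. For epithelia minus stroma, 8 of all probes were called by limma, 5 of 30176 well above background, 0 by the methods' t-test and 6 to 66 without 1 mouse (66 without mouse 1), and 0 shared probes under any of these. Without the replicate block, which ignores the pairing by animal, 7 probes were called. The count of probes with opposite tissues fell from 42 to 16 with normexp. With normexp and loess, the shares repeated in the mouse left out moved by less than the SD between the 3 mice, 11.7 percentage points. The mean ratio of the next probes, taken in the direction of the shared probe, was 0.065. It was 0.045 with normexp and 0.065 with loess, with an SD between mice of 0.057. Both SDs are wide beside these values, so they set only a loose limit. The 10 named extremes kept their sign under all 5 settings tried, and 6 of 10 met the rule with normexp and 9 of 10 after subtraction of the local level. Ratios of dim probes are limited by the signal over background.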
